A study of Homo sapiens with 3 samples.

Results

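Zinc finger genes whose symbol is ZNF followed by a number were measured by cap analysis of gene expression (CAGE) in EBC-1 cells, an established line from a human squamous cell carcinoma of the lung. CAGE sequences short tags from the capped 5′ ends of transcripts, so a level counts transcript starts and does not depend on transcript length. Cells had been electroporated with 600 pmol of RAB11A siRNA 1, of RAB11A siRNA 2 or of a negative control siRNA, and the labels name 72 h after plating. RAB11A encodes a small GTPase of the recycling endosome. Each group had 1 library, so differences have no check by replicates, and errors cover the counting of tags only. The genes were selected on symbol and level: of 455 entries with a ZNF symbol, 339 had a mean of at least 5 CPM over the 3 libraries, CPM being tags scaled to a fixed library total. They are 339 of the 10788 genes that reached this mean and of the 13479 entries in the deposited table. They carry 329 symbols, since 10 symbols stand on 2 entries each.

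C2H2 zinc finger proteins are the largest family of human transcription factors. Each finger folds around a zinc ion held by a pair of cysteines and a pair of histidines, and a row of fingers reads a stretch of DNA. Many of these proteins also carry a KRAB domain, which recruits the corepressor TRIM28 and, through it, the histone methyltransferase SETDB1 and HP1 proteins. KRAB zinc finger proteins are best known for silencing transposable elements, and their genes lie mostly in clusters, many of them on chromosome 19.

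Fingers of 5 of these genes are shown because the results below turn on them. The codons in capitals encode the zinc-binding cysteines and histidines, and lower case letters are the rest of the finger. Each is genomic sequence of GRCh37 on the plus strand, from the first cysteine to the last histidine. The finger of ZNF530 is number 7 of 13, at chr19:58118118-58118180. That of ZNF431 is number 7 of 12, at chr19:21366226-21366288. That of ZNF528 is number 8 of 15, at chr19:52919336-52919398. That of ZNF460 is number 6 of 11, at chr19:57802921-57802983. ZNF609 has a single finger, at chr15:64966542-64966613, and its spacing is wider than in the other 4.
ZNF530: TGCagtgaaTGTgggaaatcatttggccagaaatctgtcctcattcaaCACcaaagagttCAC
ZNF431: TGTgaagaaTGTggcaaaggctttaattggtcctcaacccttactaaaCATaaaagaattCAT
ZNF528: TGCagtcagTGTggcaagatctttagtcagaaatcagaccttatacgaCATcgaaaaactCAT
ZNF460: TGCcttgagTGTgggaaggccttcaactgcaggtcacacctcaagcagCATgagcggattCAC
ZNF609: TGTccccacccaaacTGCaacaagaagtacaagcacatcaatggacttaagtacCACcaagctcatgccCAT

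The ZNF genes were a low-level group. Their median mean level was 12.2 CPM (interquartile range 8.11 to 19.7), against 30.9 CPM for all genes compared, which describes how they were chosen as well as their level. They made up 3.14% of the genes compared and 0.636% of the tags. Of the 339, 84 had a mean of at least 20 CPM, 18 of at least 50 CPM and 5 of at least 100 CPM. The other 116 ZNF entries had means of 1.07 to 4.99 CPM. The limit is set on the values that are compared: 14 of the 339 entries reached it only through their highest library, which was siRNA 1 for 3 of them, siRNA 2 for 2 and control for 9. Just inside the limit were ZNF586, with 5.12, 4.52 and 5.36 CPM with siRNA 1, siRNA 2 and control, and ZNF416, with 4.64, 4.60 and 5.80 CPM. Just outside were ZNF641, with 3.72, 5.40 and 5.84 CPM, and ZNF616, with 5.32, 5.04 and 4.60 CPM.

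The genes found at the highest levels were mostly not DNA-binding repressors of the KRAB type. ZNF706, which encodes a short protein with 1 finger, stood first, at 368 CPM with siRNA 1, 372 CPM with siRNA 2 and 374 CPM with control. Its 3 libraries lay close together, and an annotated start of ZNF706 matches elsewhere in the genome. ZNF207, a spindle and kinetochore protein also called BuGZ, had 135, 114 and 122 CPM in the same order. ZNF664 had 114, 116 and 131 CPM. ZNF593, whose yeast relative acts in export of the large ribosomal subunit, had 101, 106 and 106 CPM. ZNF622, a factor of large ribosomal subunit maturation, had 99.4, 97.4 and 114 CPM. The siRNA libraries lay closer to each other than to control for ZNF664 and ZNF622, and not for ZNF207. ZNF638, an RNA- and DNA-binding nuclear protein, ZNF259, also called ZPR1, ZNF428, ZNF106, ZNF451, a SUMO ligase, ZNF768 and ZNF581 completed the 12 highest, with means of 62.2 to 75.9 CPM.

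Level went with domain content. A KRAB box was found by a sequence pattern in the translated coding sequence of 208 of the 327 entries with a coding sequence (63.6%), and not in 119. The pattern misses some KRAB boxes, divergent ones among them, and how many was not counted. It was not found in a ZNF10 entry with 10 fingers, below the limit of 5 CPM, though another ZNF10 entry had it. The entries without it can thus include KRAB genes. The pattern was also found in 13 of 10623 coding genes that have no finger and no ZNF symbol. Entries with the KRAB pattern had a median of 12 fingers and a median mean level of 10.6 CPM, against 7 fingers and 17.1 CPM for those without it. Of the 20 entries of highest mean level, 3 had the pattern and 17 did not. Finger number ranged from 0 to 36 with a median of 10, and ZNF142 with 36, ZNF462 with 33 and ZNF91 with 31 had the most. No finger was found in 13 entries, among them ZNF274, with 652 residues, and a ZNF547 entry of 102 residues. How many of these 13 hold fingers that the pattern missed was not checked. The plot of level against finger number shows the high-level genes at its left side. These are descriptions of genes chosen by level, with no test.

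**Figure D1:**
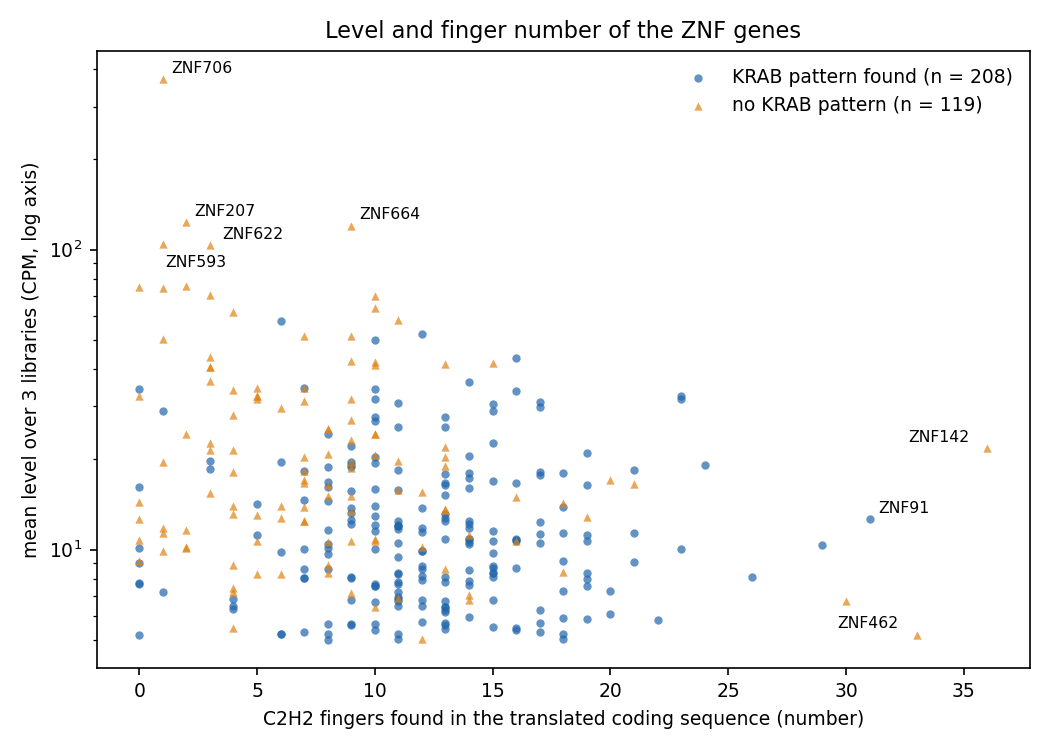
Mean level over the 3 libraries (CPM, log axis) against the number of C2H2 fingers found in the translated coding sequence, with 1 point per entry (circles, 208 with the KRAB pattern; triangles, 119 without). The 5 entries above 100 CPM carry no KRAB pattern and have 1 to 9 fingers, while ZNF142, ZNF462 and ZNF91, with 31 to 36, lie at 5.20 to 21.8 CPM.

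Chromosome 19 held 165 of the 339 entries (48.7%), chromosome 7 held 25 and chromosome 16 held 18. Of the 208 entries with the KRAB pattern, 141 were on chromosome 19. Of the identifiers, 334 were found in the annotation, 327 of them as protein-coding genes and 7 as transcribed pseudogenes, and 5 were not found. Some entries do not measure separate genes: 44 had values identical in all 3 libraries to those of another entry, 20 of them to another ZNF entry. An annotated start matched another place in the genome for 55 entries, and reads from such starts can be assigned wrongly.

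The knockdown and the cell line were checked in the same libraries. RAB11A stood at 7.48 CPM with siRNA 1, 22.7 CPM with siRNA 2 and 135 CPM with control. Of 8 general epithelial markers, 4 were among the genes compared, KRT8, KRT18, KRT19 and DSP, and KRT18 had 475, 394 and 386 CPM. Of 17 squamous markers, SFN, PERP and S100A2 were, and TP63, SOX2 and KRT5 were not. Of 17 fibroblast, endothelial, leukocyte and alveolar markers, CD68 was compared, with 21.1, 31.4 and 45.2 CPM, and COL1A1 and COL1A2 were listed at 1.04 to 2.28 CPM. Each library held about 24999950 tags, 1 tag being 0.04 CPM. In these bulk samples, fewer cells of a type and less RNA per cell cannot be told apart.

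With siRNA 1, most ZNF genes stayed close to control. Ratios are given as the log2 of (CPM + 1) in 1 library over that in another, which understates changes of low genes, and a gene was counted from 1.5-fold on. ZNF530 was higher by that rule, and it was 1 of 339 (0.295%), where 2.79% of all genes compared were higher. It reached the limit of 5 CPM only through the siRNA 1 library, so its place among the genes compared is no support for its ratio. ZNF609, ZNF135, ZNF460, ZNF528 and ZNF197 were lower, 5 of 339 (1.47%), where 2.55% of all genes were, and of these ZNF135 reached the limit only through the control library. With library scaling by TMM the counts were 2 higher and 3 lower. ZNF530 also passed 2-fold, where 0.371% of all genes were higher, and none of the 339 was 2-fold lower, where 0.519% of all genes were. The median log2 ratio of the ZNF genes was -0.05, against -0.03 over all genes compared, and 60.8% of ZNF genes lay below control, against 54.6% of all genes.

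The ZNF entry farthest below control in the whole table, ZNF124, a KRAB gene on chromosome 1, was left out by the limit of 5 CPM. ZNF124 was near 0 in both siRNA libraries, and its control value was also under the limit. It had 0.16 CPM with siRNA 1 and 0.04 CPM with siRNA 2, against 4.56 CPM with control, from 4 tags, 1 tag and 114 tags. Its log2 ratio to control was -2.26 with siRNA 1 (counting 95% interval -2.55 to -1.97) and -2.42 with siRNA 2 (-2.66 to -2.18). An annotated start of ZNF124 matches elsewhere in the genome. Below the limit, ZNF425, at 3.20 and 3.36 CPM with siRNA 1 and siRNA 2 against 5.56 CPM with control, was lower by 1.5-fold in both comparisons. ZNF19, at 2.52 CPM with siRNA 1 and 2.96 CPM with siRNA 2, against 4.72 CPM with control, was lower by that rule with siRNA 1, and ZNF175, ZNF185 and ZNF516 were lower with siRNA 2. ZNF175 was also 1.5-fold higher with siRNA 1 than with siRNA 2, at 2.88 and 1.40 CPM, with 2.68 CPM in control. These 6 entries are in none of the counts over the 339, and they were named after their values were seen.

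ZNF530 (chr19:58111253-58124090, plus strand, GRCh37), a KRAB gene with 13 fingers, had 9.60 CPM with siRNA 1 and 5.40 CPM with siRNA 2, against 4.24 CPM with control. These values rest on 240, 135 and 106 tags. The siRNA 1 library stood apart from both others, whose counting intervals overlap. The log2 ratio to control was 1.02 with siRNA 1 (counting 95% interval 0.74 to 1.29) and 0.29 with siRNA 2 (-0.01 to 0.59). The ratio of siRNA 1 to siRNA 2 was 0.73 (0.46 to 0.99).

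ZNF609 (chr15:64752777-64978267, plus strand) was farthest below control with each siRNA among the 339, all of which reached the limit of 5 CPM. In mouse neural progenitors its protein has been found with the cohesin loader NIPBL, and its locus also gives a circular RNA, which has no cap of its own and is not counted by CAGE. It had 10.1 CPM with siRNA 1 and 7.08 CPM with siRNA 2, against 17.0 CPM with control, from 253, 177 and 424 tags. No counting intervals of the 3 libraries overlapped. The log2 ratio to control was -0.69 with siRNA 1 (-0.90 to -0.48) and -1.15 with siRNA 2 (-1.38 to -0.93), and siRNA 1 stood 0.46 above siRNA 2 (0.21 to 0.71). No annotated start of ZNF609 matched elsewhere in the genome.

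The other genes lower with siRNA 1 were KRAB genes. ZNF460, an Alu-binding protein, had 23.5 CPM with siRNA 1 and 32.6 CPM with siRNA 2, against 36.6 CPM with control, a log2 ratio of -0.62 with a counting standard error of 0.074 for siRNA 1. The siRNA 2 library lay near control for this gene. ZNF528 had 18.6 and 20.8 CPM with siRNA 1 and siRNA 2, against 28.7 CPM with control, and here both siRNA libraries lay below control. ZNF135 had 4.12 and 5.36 CPM, against 6.88 CPM with control, and ZNF197 had 4.40 and 5.92 CPM, against 7.12 CPM. These last genes rest on 103 to 178 tags, and their counting standard errors were 0.15 for siRNA 1 against control. An annotated start of ZNF528 matches elsewhere in the genome.

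With siRNA 2, none of the 339 was at least 1.5-fold higher than control, where 1.23% of all genes were. ZNF609 and ZNF674 were lower, 2 of 339 (0.590%), where 1.84% of all genes were. At 2-fold none of the 339 was higher, where 0.195% of all genes were, and ZNF609 was lower, where 0.269% of all genes were. ZNF674, a KRAB gene on the X chromosome, had 11.4 CPM with siRNA 1 and 9.04 CPM with siRNA 2, against 15.5 CPM with control, and its log2 ratios to control were -0.42 and -0.72. An annotated start of ZNF674 matches elsewhere. The median log2 ratio of the ZNF genes was -0.09, against -0.04 over all genes, and 68.1% of ZNF genes lay below control, against 58.2% of all genes.

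Between the siRNAs, ZNF530 was at least 1.5-fold higher with siRNA 1 than with siRNA 2, where 0.89% of all genes were, and no other of the 339 was past 1.5-fold, where 0.695% were lower. As above, ZNF530 is among the 339 only through its siRNA 1 value. None of the 339 passed 2-fold in either direction, where 0.167% of all genes were higher and 0.185% lower. The median log2 ratio was 0.04, against 0.02 over all genes. After ZNF530 the highest ratios were those of ZNF395, a hypoxia-linked factor, ZNF273, ZNF576 and ZNF614. ZNF395 had 14.8 CPM with siRNA 1 and 9.92 CPM with siRNA 2, with 10.6 CPM in control. The lowest was that of ZNF460, at -0.46. The ratios to control use the same single control library, so they are not separate checks of each other.

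The ratios of ZNF genes were spread less widely than those of all genes. Their standard deviation over genes was 0.23 with siRNA 1 against control, 0.19 with siRNA 2 against control and 0.18 between the siRNAs. Over all genes compared these were 0.34, 0.31 and 0.28. The ranges between quartiles differed less. With siRNA 1 against control the quartiles were -0.19 and 0.09 for ZNF genes, and -0.19 and 0.14 over all genes. With siRNA 2 against control they were -0.22 and 0.03, against -0.20 and 0.10. Between the siRNAs they were -0.06 and 0.16, against -0.09 and 0.14. The narrower spread was also seen at like levels. Among genes of 5 to 10 CPM, the 118 ZNF genes had a standard deviation of 0.26 with siRNA 1 and 0.19 with siRNA 2 against control, and the 1524 other genes had 0.44 and 0.36. The quartiles in that range with siRNA 1 against control were -0.19 and 0.15 for ZNF genes, and -0.22 and 0.17 for other genes. The median counting standard error in that range was 0.13 in both sets. Among genes of 20 to 50 CPM the values were 0.20 and 0.17 for 66 ZNF genes and 0.29 and 0.28 for 3063 other genes. The narrower spread was not particular to ZNF symbols. Standard deviations with siRNA 1 and siRNA 2 against control were 0.20 and 0.15 for 11 ZFP genes and 0.20 and 0.24 for 27 ZBTB genes. They were 0.18 and 0.21 for 26 listed corepressor and chromatin genes, and 0.32 and 0.21 for 10 KLF genes. The histogram of ratios shows the ZNF genes within the other genes, with shorter tails. This is a description with no test.

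**Figure D2:**
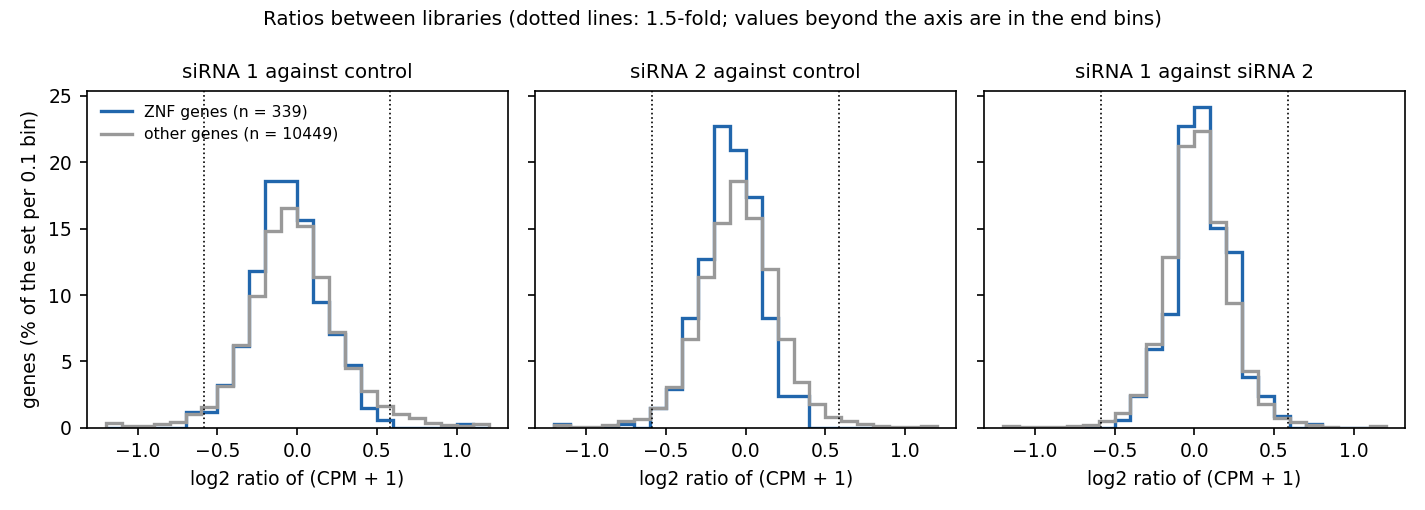
Distribution of log2 ratios of (CPM + 1) for 339 ZNF genes (blue) and 10449 other genes (grey), as the percentage of each set per bin of 0.1, for each pair of libraries, with dotted lines at 1.5-fold. The ZNF genes centre slightly left of 0 against control, at medians of -0.05 and -0.09, and few lie past the dotted lines.

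An exact two-sided binomial test on the recovered tags, with Benjamini-Hochberg adjustment over all genes, compares these libraries and not the conditions. With calls made at 0.05 after adjustment, it found 34 ZNF genes (10.0%) higher with siRNA 1 than control, where it called 23.3% of all genes, and 78 (23.0%) lower, where it called 29.1%. With siRNA 2 it called 14 ZNF genes (4.13%) higher, where it called 18.4% of all genes, and 77 (22.7%) lower, where it called 29.9%. Between siRNA 1 and siRNA 2 it called 37 ZNF genes (10.9%) higher, where it called 21.4% of all genes, and 16 (4.72%) lower, where it called 15.4%. The median ZNF gene had 319 tags in the control library, and this test needs a larger ratio where tags are fewer.

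Several other genes stood on 1 side of control in both siRNA libraries. ZNF768 had 55.1 CPM with siRNA 1 and 57.3 CPM with siRNA 2, against 79.2 CPM with control, and log2 ratios of -0.52 and -0.46. Its counting standard errors were 0.050 and 0.049, among the smallest of these genes. ZNF865 had 373 and 375 tags with siRNA 1 and siRNA 2, against 534 tags (21.4 CPM) with control. ZNF777, a KRAB gene on chromosome 7, had 12.5 and 11.4 CPM, against 17.3 CPM. In each of these 3 genes the siRNA libraries lay near each other and below control. On the other side, ZNF431 (chr19:21324827-21378856, plus strand), a KRAB gene, had 16.6 and 13.9 CPM with siRNA 1 and siRNA 2, against 10.7 CPM with control. Its log2 ratios were 0.58 and 0.35, just short of 1.5-fold with siRNA 1. ZNF620, a KRAB gene on chromosome 3, had 13.4 and 12.1 CPM, against 9.32 CPM. The pseudogene ZNF702P, with a start that matches elsewhere, had 12.1 and 10.5 CPM, against 8.04 CPM. ZNF639 had 53.3 and 56.6 CPM, against 44.8 CPM, and ZNF367 had 12.1 and 12.6 CPM, against 10.0 CPM.

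**Figure D3:**
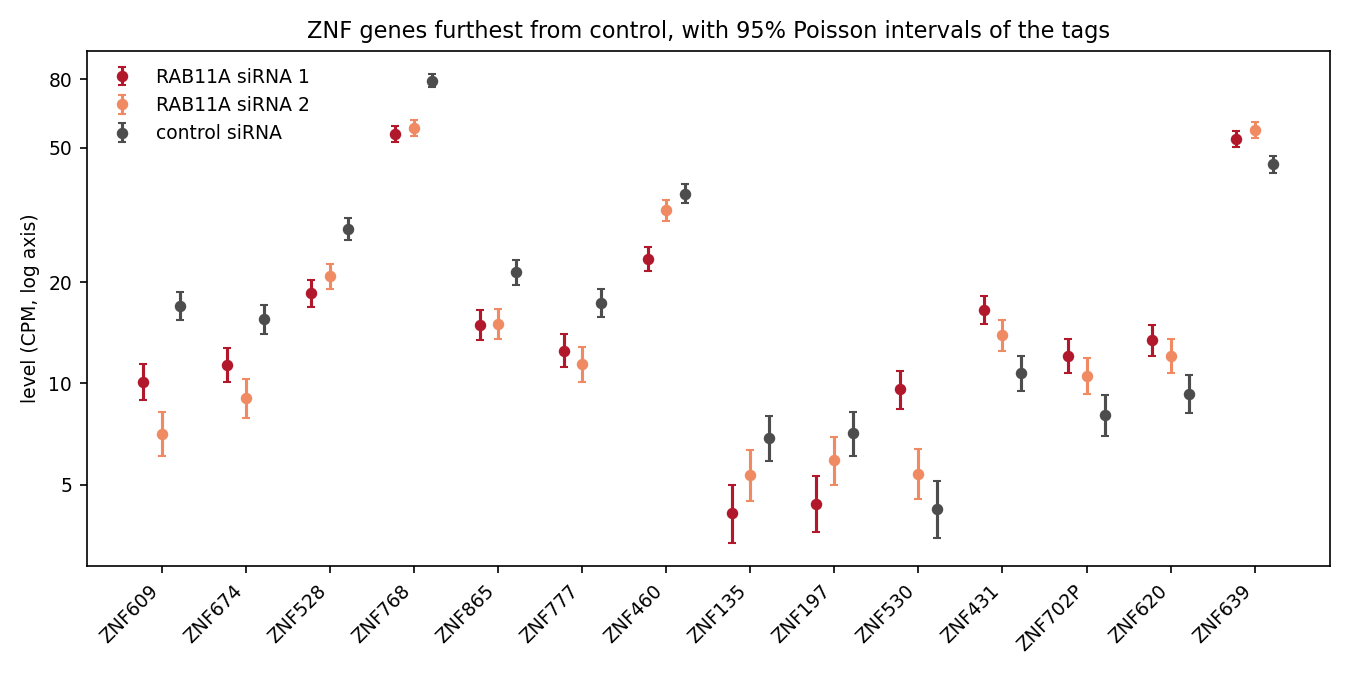
Levels (CPM, log axis) of 14 ZNF genes with large ratios to control, in the siRNA 1, siRNA 2 and control libraries, with bars for the exact 95% Poisson interval of the tags. The genes from ZNF609 to ZNF197 are highest in control, and those from ZNF530 to ZNF639 are lowest in control. ZNF609 has 10.1, 7.08 and 17.0 CPM and ZNF530 has 9.60, 5.40 and 4.24 CPM in that order.

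Smaller differences from control ran the same way for both siRNAs in further genes. Of the lower ones, ZNF579 had 7.24 CPM with siRNA 1 and 7.44 CPM with siRNA 2, against 10.3 CPM with control, and ZNF513 had 8.04 and 8.08 CPM, against 10.6 CPM. ZNF767 had 5.88 and 6.52 CPM, against 8.72 CPM, and ZNF205, a KRAB gene on chromosome 16, had 4.72 and 4.68 CPM, against 6.32 CPM, through which alone ZNF205 reached the limit of 5 CPM. The siRNA libraries of these genes differed from each other by less than their counting error. Of the higher ones, ZNF814, with 23 fingers and a start that matches elsewhere, had 36.0 and 33.3 CPM, against 27.9 CPM with control. ZNF292 had 11.9 and 11.8 CPM, against 9.88 CPM, and ZNF74, a KRAB gene on chromosome 22, had 6.56 and 5.88 CPM, against 4.72 CPM. ZNF347 had 5.08 and 6.28 CPM, against 4.56 CPM, and had the highest ratio to control with siRNA 2 among the 339, at 0.39 on the log2 scale. It reached the limit only through that siRNA 2 value.

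ZNF proteins with RNA, ribosome and spindle roles were followed as a list, and all 13 were measured. None was 1.5-fold from control with either siRNA. Over all genes compared, 5.34% were past 1.5-fold in 1 direction or the other with siRNA 1 and 3.08% with siRNA 2, so a count of 0 or 1 in a list this short says nothing about the list. Their median log2 ratios were -0.08 with siRNA 1 and -0.08 with siRNA 2, against -0.03 and -0.04 over all genes. The gene farthest from control was ZNF598, a ubiquitin ligase that marks collided ribosomes. It had 50.5 CPM with siRNA 1 and 40.6 CPM with siRNA 2, against 60.3 CPM with control, with log2 ratios of -0.25 and -0.56. Here the siRNA 2 library was the lowest of the 3.

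Partners of chromatin complexes were 14 measured of 17 listed, and none was 1.5-fold from control, where 5.34% and 3.08% of all genes were. Their median log2 ratios were -0.06 and -0.04, against -0.03 and -0.04 over all genes, and the second was 0.00 with TMM scaling, so it carries no direction. ZNF687 and ZNF592, which form a complex with the chromatin reader ZMYND8, lay below control. ZNF687 had 25.8 and 23.7 CPM with siRNA 1 and siRNA 2, against 31.9 CPM with control, and ZNF592 had 14.2 and 13.4 CPM, against 17.6 CPM. ZNF281, at 41.3 and 40.4 CPM against 39.8 CPM with control, lay near control in both.

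Promoter-binding activators and related factors were 9 measured of 12, and none was 1.5-fold from control, where 5.34% and 3.08% of all genes were. Their median log2 ratios were -0.05 and -0.09, against -0.03 and -0.04 over all genes. ZNF143, which binds the promoters of many housekeeping genes, had 31.1 and 30.2 CPM with siRNA 1 and siRNA 2, against 32.3 CPM with control. ZNF410, known as an activator of the remodeler gene CHD4, had 35.3 and 28.8 CPM, against 39.6 CPM. CHD4 had 46.8 and 50.7 CPM, against 56.8 CPM with control. Both genes lay below control with both siRNAs, ZNF410 lowest with siRNA 2 and CHD4 lowest with siRNA 1. A link between the levels of these genes was not tested.

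KRAB proteins that bind retroelements were 9 symbols on 10 entries of 13 listed. ZNF460 alone was 1.5-fold from control, lower with siRNA 1, where 2.55% of all genes were lower. The median log2 ratios were 0.05 and -0.10, against -0.03 and -0.04 over all genes. ZNF91, which binds SVA elements, had 13.04 and 12.1 CPM with siRNA 1 and siRNA 2, against 12.8 CPM with control. ZNF93, which binds LINE-1 elements, had 8.88 and 9.32 CPM, against 7.84 CPM. ZNF274, which recruits SETDB1 to the ends of ZNF genes themselves, had 17.2 and 14.8 CPM, against 16.4 CPM. The counting 95% intervals of the ratios to control included 0 for these 3 genes with both siRNAs. Between siRNA 1 and siRNA 2 that of ZNF274, at 0.20 (0.015 to 0.39), did not. Of the epithelial and stress-linked ZNF genes, 5 of 15 were measured, none 1.5-fold from control, where 5.34% and 3.08% of all genes were, with medians of 0.23 and -0.09.

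A list of corepressor genes around TRIM28, SETDB1 and HP1, which also holds general chromatin genes, was measured in full, 26 of 26. None was 1.5-fold from control, where 5.34% of all genes were with siRNA 1 and 3.08% with siRNA 2. Their median log2 ratios were 0.03 with siRNA 1 and 0.10 with siRNA 2, against -0.03 and -0.04 over all genes. TRIM28, the corepressor bound by KRAB, had 64.8 and 69.5 CPM with siRNA 1 and siRNA 2, against 60.4 CPM with control. SETDB1 had 17.4 and 14.1 CPM, against 20.4 CPM, with log2 ratios of -0.22 and -0.51. UHRF1 and DNMT1, which maintain DNA methylation through replication, lay above control. UHRF1 had 37.7 and 32.96 CPM, against 26.4 CPM, and DNMT1 had 121 and 106 CPM, against 89.7 CPM.

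ZNF genes with and without the KRAB pattern were compared as subgroups without a test. The 208 entries with the KRAB pattern had median log2 ratios of -0.04 and -0.09 with siRNA 1 and siRNA 2 against control, and the 119 without it had -0.08 and -0.10. Between siRNA 1 and siRNA 2 the medians were 0.07 with the pattern and 0.00 without it. The 165 entries on chromosome 19 had -0.04 and -0.10 against control and 0.07 between the siRNAs. The 169 on other chromosomes had -0.08, -0.09 and 0.02. Genes other than ZNF on chromosome 19, 610 of them, had -0.06, -0.08 and 0.04. Subgroups by finger number had medians between -0.10 and -0.04 with siRNA 1 and between -0.13 and -0.09 with siRNA 2. No error was computed for these medians.

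Along chromosome 19 the entries fall into groups separated by more than 1 Mb, and 8 groups hold at least 6 entries. They are lettered A to H by position in the plot of ratios by group. Group C, chr19:19779605-22034927, from ZNF101 to ZNF43, held 16 entries, all with the KRAB pattern. Its median log2 ratio was 0.24 with siRNA 1 against control, with 13 of 16 above 0, and -0.02 with siRNA 2 against control, which was 0.03 with TMM scaling. Between siRNA 1 and siRNA 2 it was 0.21, with 14 of 16 above 0. ZNF85, in this group, had 9.92 CPM with siRNA 1 and 6.96 CPM with siRNA 2, against 7.40 CPM with control. ZNF430 had 9.48 and 6.68 CPM, against 7.28 CPM, and ZNF43 had 18.96 and 15.6 CPM, against 14.7 CPM. ZNF626, at 30.6 and 29.9 CPM against 34.8 CPM with control, lay below control in both.

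Group B, chr19:11670189-12750912, from ZNF627 to ZNF791, held 20 entries. Many of them, under ZNF443, ZNF564, ZNF625, ZNF700, ZNF709, ZNF763 and ZNF788, share all their values with another entry. The counts of group B thus hold some tags more than once, and no count without repeats was made. The median log2 ratio of group B was -0.06 with siRNA 1 against control, with 12 of 20 below 0. With siRNA 2 against control it was -0.29, with 18 of 20 below 0. Between siRNA 1 and siRNA 2 it was 0.22, with 17 of 20 above 0. ZNF564 and an entry of ZNF709 share 8.16 CPM with siRNA 1 and 6.64 CPM with siRNA 2, against 10.2 CPM with control. ZNF433 had 6.44 and 4.80 CPM, against 6.52 CPM. ZNF69 lay the other way, with 5.80 and 6.32 CPM, against 4.72 CPM. The median level in group B was 7.42 CPM in control, and the median counting standard errors were 0.13 and 0.14 against control, so single genes there are measured loosely. Group A, chr19:7069714-9785776, from ZNF557 to ZNF562, held 13 entries and had medians of -0.16 with siRNA 1 and -0.16 with siRNA 2 against control. In it, 12 of 13 lay below control with siRNA 1. With siRNA 2, 8 of 13 lay below control and 2 above, and the rest had the same CPM as control. In group A, 3 of the entries, under ZNF177 and ZNF559, share their values. The 2 largest groups were H, chr19:55987984-58943103, with 42 entries and medians of -0.05 and -0.11 against control, and G, chr19:52392488-54083523, with 31 entries and medians of -0.03 and -0.06. ZNF530, ZNF460 and ZNF135, on both sides of control, lie in group H. Groups A, B and C were picked out after their values were seen, and no test was made of them. Over the whole chromosome, ratios of neighbouring ZNF entries were only weakly related. Over 105 neighbouring pairs with starts under 100000 bases apart, the Pearson correlation was 0.15 with siRNA 1 against control. It was 0.03 with siRNA 2 against control and 0.15 between the siRNAs.

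**Figure D4:**
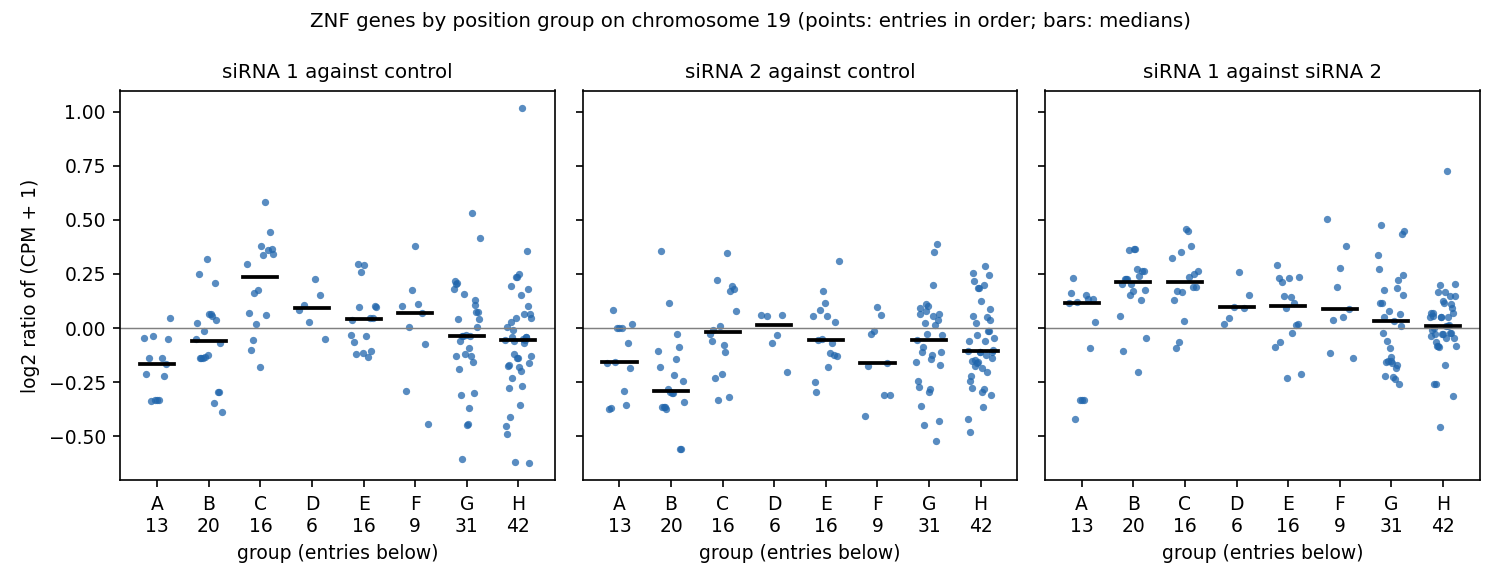
Log2 ratios of (CPM + 1) of ZNF entries on chromosome 19, in 8 groups lettered A to H from the start of the chromosome, for each pair of libraries (points, entries in order; bars, medians; numbers under the letters, entries). Group C lies at a median of 0.24 with siRNA 1 against control, and group B at -0.29 with siRNA 2 against control.

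Other C2H2 families were read beside the ZNF genes. The 11 ZFP genes had medians of -0.29 and -0.20 with siRNA 1 and siRNA 2 against control, the 7 ZSCAN genes -0.17 and -0.22, the 27 ZBTB genes -0.08 and -0.14, and the 10 KLF genes -0.15 and -0.19. The ZNF genes, at -0.05 and -0.09, lay nearer to 0 than these 4 families, which are small and were not tested against them.

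ZNF promoters were examined because CAGE counts transcript starts. RefSeq windows of 300 bases (GRCh38.p14, 250 bases before to 50 after the gene start) matched 284 of the 329 symbols. The windows below are read on the gene's strand, and capitals mark the motifs searched on both strands. Those of ZNF609 (chr15:64460328-64460627, plus strand), ZNF530 (chr19:57599635-57599934, plus), ZNF431 (chr19:21141790-21142089, plus) and ZNF528 (chr19:52397599-52397898, plus) hold the ETS core. That of ZNF768 (chr16:30526517-30526816, minus) holds GC boxes only.
ZNF609: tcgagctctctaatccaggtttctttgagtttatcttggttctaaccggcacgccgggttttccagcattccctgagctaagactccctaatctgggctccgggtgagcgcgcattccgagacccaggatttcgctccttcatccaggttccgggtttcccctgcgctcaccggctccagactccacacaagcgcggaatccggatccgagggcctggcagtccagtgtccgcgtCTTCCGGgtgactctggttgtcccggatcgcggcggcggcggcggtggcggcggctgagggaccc
ZNF530: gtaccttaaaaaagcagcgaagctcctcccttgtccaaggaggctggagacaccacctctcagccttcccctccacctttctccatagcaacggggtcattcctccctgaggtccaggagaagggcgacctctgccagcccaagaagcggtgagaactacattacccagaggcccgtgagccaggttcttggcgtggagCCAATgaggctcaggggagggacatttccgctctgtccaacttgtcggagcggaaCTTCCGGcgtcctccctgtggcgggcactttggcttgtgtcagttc
ZNF431: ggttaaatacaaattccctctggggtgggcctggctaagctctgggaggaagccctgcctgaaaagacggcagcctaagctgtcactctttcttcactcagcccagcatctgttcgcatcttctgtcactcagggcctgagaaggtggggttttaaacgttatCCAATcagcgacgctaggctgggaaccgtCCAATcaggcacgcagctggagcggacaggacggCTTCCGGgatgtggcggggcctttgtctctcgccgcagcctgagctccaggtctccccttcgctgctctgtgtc
ZNF528: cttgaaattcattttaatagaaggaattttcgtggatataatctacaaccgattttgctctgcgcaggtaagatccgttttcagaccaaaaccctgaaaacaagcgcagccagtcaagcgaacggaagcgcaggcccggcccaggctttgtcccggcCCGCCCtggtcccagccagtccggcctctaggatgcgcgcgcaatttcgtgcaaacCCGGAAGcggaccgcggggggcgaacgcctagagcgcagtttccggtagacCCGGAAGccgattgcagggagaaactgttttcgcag
ZNF768: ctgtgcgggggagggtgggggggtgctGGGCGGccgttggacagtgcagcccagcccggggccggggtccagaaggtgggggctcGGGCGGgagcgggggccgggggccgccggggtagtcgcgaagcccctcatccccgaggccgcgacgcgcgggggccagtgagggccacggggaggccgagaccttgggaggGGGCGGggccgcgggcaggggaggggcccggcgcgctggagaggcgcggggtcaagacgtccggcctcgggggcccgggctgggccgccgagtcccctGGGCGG

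The ETS core CCGGAAG was found in 44.4% of the ZNF promoters, against 22.4% of the 8190 matched promoters of all genes compared and 10.7% of all 27305 promoters in the table. ETS factors bind such sites near the starts of many widely expressed genes. The CCAAT box was in 50.4% of ZNF promoters, against 37.9% of genes compared and 35.7% of all promoters. The GC box GGGCGG was in 66.2%, against 72.9% and 44.6%, and the TATA box TATAAA in 3.52%, against 4.99% of genes compared and 3264 of the 27305 promoters. The ZNF143 core ACTACAA was in 6.34%, against 4.33% and 2.95%, and the YY1 core AAGATGGC in 4.93%, against 6.45% and 3.03%. The CRE TGACGTCA was in 4.93%, against 3.68% and 1.98%, and the NRF1 motif GCGCATGC in 5.63%, against 6.26% and 3.27%. Median GC content was 61.8% in ZNF promoters, against 65.7% in genes compared, and windows of near-identical genes are not independent. A match is a run of letters and not a shown binding site.

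**Figure D5:**
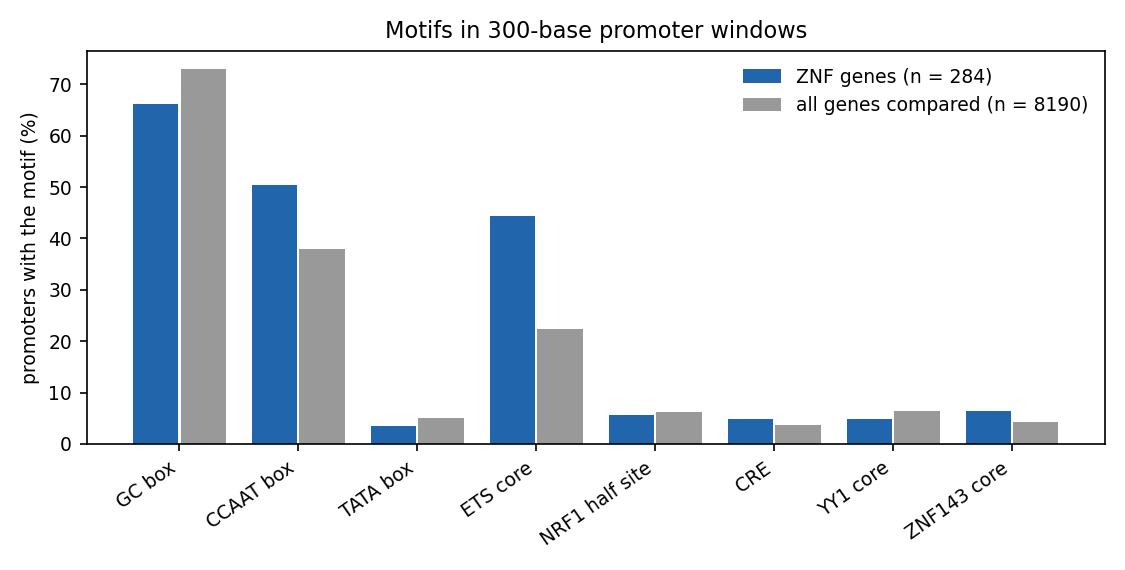
Share of 300-base promoter windows that hold each motif on either strand (%), for 284 ZNF genes and for 8190 genes compared, which include the ZNF genes. The ETS core is in 44.4% against 22.4% and the CCAAT box in 50.4% against 37.9%, while the GC box is in 66.2% against 72.9%.

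The siRNAs can also pair with other transcripts through the seed, bases 2 to 8 of the guide strand. The sequences in the labels are shown as sense strands, and the capitals mark the 7 bases, positions 12 to 18, that a target must hold to pair with the seed.
siRNA 1: gcauccagguuGAUGGAAa
siRNA 2: agcaagagcuuUUGCAGAa

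A match to the siRNA 1 seed was found in the annotated 3′ UTRs of 60 ZNF entries (18.3%), against 14.6% over all genes. Shares of seed matches are of the entries compared that have a coding sequence. The 60 entries had a median log2 ratio of -0.08 with siRNA 1 against control, against -0.05 for ZNF entries without a match. Over all genes the medians were -0.08 with and -0.02 without. A match to the siRNA 2 seed was found in 68 ZNF entries (20.8%), with a median with siRNA 2 of -0.06, against -0.10 without. Among all genes both medians with siRNA 2 were -0.05. Entries with a match had longer 3′ UTRs, with a median of 3617 bases against 1508 for siRNA 1. ZNF530 and ZNF197 each had 2 matches to the siRNA 1 seed, and they lay on opposite sides of control. ZNF431 had 2 matches to the siRNA 2 seed and lay above control. ZNF609 had none for either siRNA, and neither had ZNF460, ZNF528, ZNF674 or ZNF768.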

How the data were processed

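CAGE libraries of EBC-1 cells were made from total RNA, 1 each for RAB11A siRNA 1, RAB11A siRNA 2 and control siRNA, per the labels. The authors deposited CPM per gene and strand in 1 table, whose 3 columns were matched to libraries by name. The submitters' processing notes name BWA, HISAT2 and the build hg19. The sources used here do not give what each tool did, its version, the counter or the treatment of multiply matching reads. Within 0.005 CPM, 99.99% to 100.0% of each library's deposited values stepped by 0.04 CPM, so whole tags were recovered, about 24999950 in every library. The total was sought only near this value, so its last digits and its equality across libraries are not exact. How the totals came to be so alike is unknown here. Summed over entries, the recovered tags were 25204585 with siRNA 1, 25137457 with siRNA 2 and 25174787 with control. These sums are above the total, so the entries do not all hold separate tags. At 5 CPM a gene has 125 tags, and a count of 0 allows up to 0.12 CPM (3 tags), for counting error only.

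The members and gene lists were chosen with earlier results of these data known. Genes averaging 5 CPM or more were compared as log2 ratios of (CPM + 1), with Poisson counting errors, and counted from 1.5-fold on. With 1 library per group no p-value is a main result. The count test on recovered tags was an exact binomial test with Benjamini-Hochberg adjustment. Scripts were tested on simulated data. The named genes are the 12 of highest level, up to 10 per direction that differ from control with the same sign for both siRNAs, the 5 most extreme each way per comparison, those past 2-fold, those at the limit of 5 CPM, up to 6 per list and those sharing values with another entry. ZNF124, ZNF425, ZNF19, ZNF175, ZNF185, ZNF516, ZNF142, ZNF462, ZNF592, ZNF85, ZNF430, ZNF43, ZNF433, CHD4 and the chromosome 19 groups A, B and C were named after their values were seen. ZNF10 was named for the KRAB calls of its entries.

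KRAB boxes and fingers were found by pattern in coding sequences of the GENCODE annotation lifted to GRCh37, translated here, in place of the RefSeq proteins first planned, which were not used here. The first 50 bases of annotated starts were searched in GRCh37 with minimap2 2.31, allowing 2 mismatches. Alternatives were a pseudocount of 0.5 or 5 CPM, a minimum mean of 1 or 20 CPM or none, scaling by TMM (edgeR 4.0.16 in R 4.3.3) and by median ratios, and leaving out entries with identical values or matching starts. The rest used Python 3.11.15 (pandas 2.3.3, numpy 2.4.6, scipy 1.17.1, matplotlib 3.10.9).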

Additional observations from a re-analysis of the deposited data

How the results depend on the processing

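No paired analysis was possible because each group has 1 library. The median log2 ratio of the ZNF genes kept its sign in each comparison under every alternative run. With siRNA 1 against control (-0.05 as reported) it was -0.030 with TMM, -0.031 with median ratios and -0.080 at a minimum mean of 20 CPM. With siRNA 2 against control (-0.09) it was -0.049 with either scaling and -0.075 with a pseudocount of 5 CPM. Between the siRNAs (0.04) it was 0.022 with either scaling and 0.0024 at a minimum mean of 20 CPM. Of 1236 recomputed single-gene ratios of 103 genes, 1232 moved by less than their 95% counting interval, and no ratio past 1.5-fold changed sign. Counts past 1.5-fold are small and moved with most settings. The count lower with siRNA 1 (5 as reported) was 7 with a pseudocount of 0.5 CPM, 0 with 5 CPM, 8 at a minimum mean of 1 CPM or without a filter, where ZNF124, ZNF425 and ZNF19 enter, 2 at 20 CPM and 3 under both other scalings. The count lower with siRNA 2 (2 as reported) was 4 with 0.5 CPM, 1 with 5 CPM, 7 at 1 CPM and with no filter, where ZNF124, ZNF425, ZNF175, ZNF185 and ZNF516 enter, 0 at 20 CPM and 1 without genes whose starts match elsewhere, which drops ZNF674. The count higher with siRNA 1 (1 as reported) was 2 with 0.5 CPM and under both other scalings, where ZNF431 passes, and 0 at 20 CPM, where ZNF530 is filtered out. Between the siRNAs, 1 higher became 2 at 1 CPM and with no filter, where ZNF175 enters, and 0 with 5 CPM and at 20 CPM. A threshold of 2-fold gave 1 higher and 0 lower with siRNA 1, 0 and 1 with siRNA 2, and 0 and 0 between the siRNAs, and the binomial test gave 34 and 78, 14 and 77, and 37 and 16. With a pseudocount of 5 CPM the log2 ratio of ZNF530 with siRNA 1 was 0.66 and that of ZNF609 with siRNA 2 was -0.86. The ZNF706 ratio with siRNA 2, -0.01 as reported, was 0.04 with either scaling. Other causes of these differences were not tested. At the median of 319 control tags, the counting standard error of a ratio is 0.11. Ratios nearer to 0 than about that size are within 1 counting standard error. The 95% counting interval is wider, so somewhat larger ratios also have intervals that include 0.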
